A study of Gallus gallus with 77 samples.

Results

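The 50 genes described here carry names of families with members that act in the placodes and in the sensory lineages of the inner ear. They were followed through the first 3 hrs after laser wounding of the chick cochlear sensory epithelium. They were chosen by name, as the PAX, sine oculis, EYA, DACH, POU, LHX, LMX, ISL, OTX, GBX, MEIS, PBX and PKNOX genes among the 1507 genes on the array. Earlier results of these data were known when that choice was made. They comprised 9 PAX genes, 10 genes of the sine oculis, EYA and DACH families, 11 POU genes, 8 LIM homeobox genes, 3 OTX and GBX genes, and 9 genes of the TALE class (*MEIS*, *PBX* and *PKNOX*). Most encode homeodomain proteins, though not all do. Among the exceptions, EYA and DACH proteins are cofactors without a homeodomain, and *POU2AF1*, a lymphoid coactivator of POU proteins, entered by its name only. *LHX3*, *LMX1A* and *OTX1* were not among the names on the array.

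The inner ear arises from the otic placode, a thickening of head ectoderm set up by a network in which PAX, sine oculis, EYA and DACH proteins act together. *PAX2* and *PAX8* mark the early otic placode. EYA proteins are coactivators of sine oculis factors, and loss of EYA1 disrupts ear development. Later, *POU4F3* is needed for hair cells to survive, and *POU4F1*, *ISL1* and the LIM factors take part in the sensory neurons. TALE proteins bind DNA beside HOX proteins and other homeodomain factors.

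The cultures were sensory epithelia of the cochlea of young posthatch White Leghorn chicks, freed from stroma with thermolysin and grown on fibronectin, in which a laser microbeam cut linear wounds. Wounded cultures recovered for 30 min, or for 1, 2 or 3 hrs, and their RNA was hybridized against that of time-matched unlesioned cultures, after amplification of the cDNA and transcription from it in vitro. There were 2 biological replicates at each of the 4 time points, on 25, 17, 15 and 20 arrays, and the laser RNA was labelled with Cy3 on 38 arrays and with Cy5 on 39. The arrays of a replicate were technical repeats, so that the p-values measured the spread between 8 samples. The RNA came from whole cultures, wound and unwounded cells together. In such bulk RNA, fewer cells of a type and less RNA per cell cannot be told apart. The labels named both channels alike, and the direction of each ratio was taken from the dye number in the array title.

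The probes were human 50-mers, each in 2 spots, hybridized with chicken cDNA. Of the 50 genes, 44 matched a chicken RefSeq symbol or synonym. *PAX8*, *SIX4*, *MEIS3*, *PBX2*, *POU2F2* and *POU5F1* did not. For these the name is that of the human probe, and what the probe measured in chicken cDNA was not tested. The median array had a signal over local background of 5.62, 2.74, 3.08 and 3.06 at the 4 time points in order. Detection was taken as a signal no lower than 1000 in 80% or more of a time point's arrays, with both channels averaged and local background not subtracted. It was met by 12, 48, 47 and 23 of the 50 genes in the same order (24%, 96%, 94% and 46%), against 32.05%, 92.17%, 85.47% and 57.33% of all genes. The median spot signal was 1222, 2859, 1952 and 1385 in that order. Detection over time therefore cannot be told apart from the brightness of the arrays. At all 4 time points it was met by 11 of the 50, and *DACH* and *POU4F2* did not meet it at any. The 54 control spots were also bright, with a 95th percentile of 2857 in the median array (range 1010 to 9852). *POU4F1* exceeded that percentile of its own arrays at all 4 time points, *MEIS3* at 3, *LHX6* and *SIX2* at 2, and *PAX5* and *PAX7* at 1. The number of the 50 above it was 1, 5, 2 and 5, against 5.906%, 11.28%, 6.37% and 8.626% of all genes. Signal thus did not separate most of these genes from control spots, and the level of one probe cannot be set against that of another.

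Detection of markers did not set 1 cell type apart in the cultures. Of 4 hair cell markers (*ATOH1*, *POU4F3*, *GFI1*, *BARHL1*), 0 were detected at all 4 time points, as were 0 of the 3 supporting cell markers on the array (*SOX2*, *PROX1*, *GATA3*), 0 of 2 muscle markers and 0 of the glial, mesenchymal and melanocyte markers. *NEUROG1* and *POU4F1* of the 4 ganglion neuron markers and *PAX5* and *POU2AF1* of the 5 blood and lymphoid markers were detected at all 4. The summed signal of the hair cell list ran from 2225 to 31220 over the arrays of 30 min, 4938 to 17432 at 1 hr, 5928 to 13804 at 2 hrs and 3399 to 10682 at 3 hrs. The median laser over control ratio of a marker list lay between -0.12 and 0.14 on the log2 scale at every time point, and the part of cell composition in the results below was not tested.

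No wound response of the 50 genes passed the test across all genes. On the log2 scale of laser over control, used for every ratio here, limma gave 0 of 50 genes with an adjusted p under 0.05 at any time point, and likewise 0 of all 1504 genes tested. The smallest adjusted p among the 50 was 0.450, 0.999, 0.209 and 1.00 from 30 min to 3 hrs. Calls are therefore given at an unadjusted p under 0.05, with and without a change over 1.2-fold. With the fold threshold, 1 gene passed at 30 min (*PAX4*, lower after laser), where the share of all genes was 3.46%, and 2.53% for lower ratios. None passed at 1 hr, where the share of all genes was 0.332%. At 2 hrs 3 passed (*PAX2*, *PAX5*, *PAX9*), all lower after laser, against 4.19% of all genes and 2.06% for lower ratios. None passed at 3 hrs, where the share of all genes was 1.53%. All 4 of these calls were PAX genes, and the 4 genes of 50 called at any time point stood against 8.31% of all 1504 genes.

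Without the fold threshold, 4, 5, 4 and 0 of the 50 had an unadjusted p under 0.05 in order of time, against 8.91%, 2.66%, 10.9% and 3.79% of all genes. These were 13 of 200 pairs of gene and time point, over 12 genes. The ratios of the 50 were small, from -0.27 to 0.18 at 30 min, -0.23 to 0.21 at 1 hr, -0.39 to 0.13 at 2 hrs and -0.17 to 0.13 at 3 hrs. Their median was -0.04, 0.02, -0.05 and -0.02 in that order, beside 0.00, -0.01, -0.01 and 0.00 for all genes. In order of time, 35, 20, 35 and 28 of the 50 lay below 0, against 51.66%, 54.85%, 54.92% and 50.33% of all genes. By replicate the number was 26 and 34 at 30 min, and 33 and 27 at 2 hrs. Ratios in both replicates are drawn in the plot of the genes by time point.

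**Figure D1:**
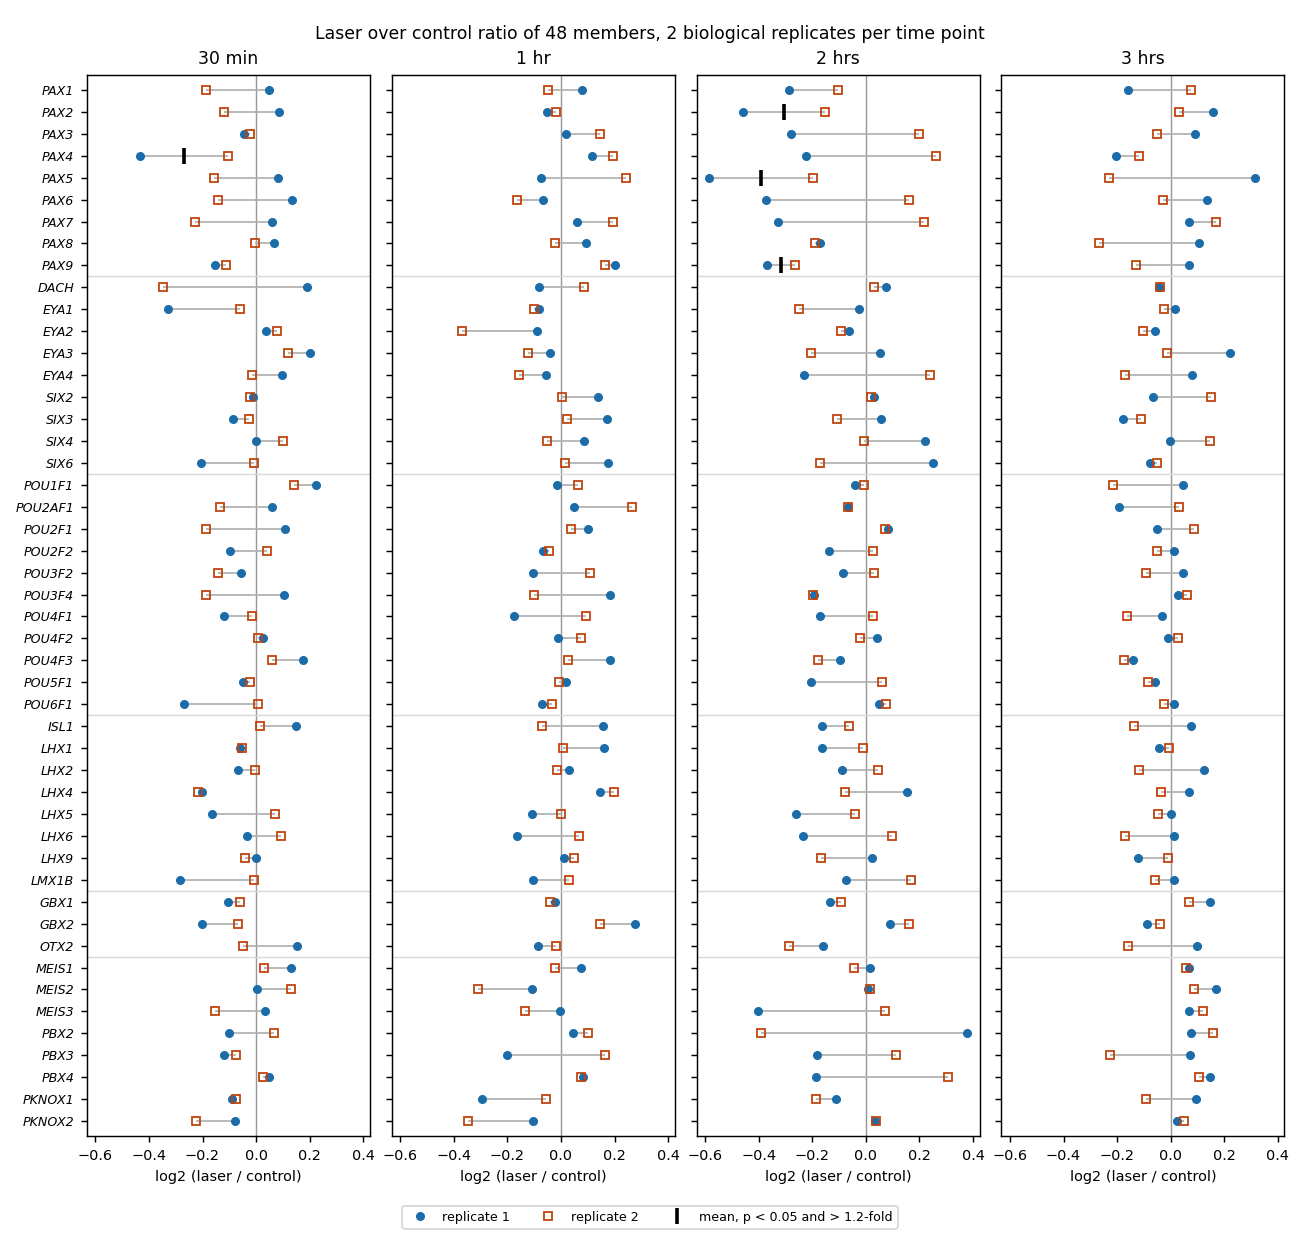
Log2 ratio of laser over control (x axis) of 48 of the genes (y axis, grouped by family), 1 panel for each time point. Filled circles are replicate 1, open squares replicate 2, lines join the replicates, and black bars mark the mean of the 4 calls at p under 0.05 and over 1.2-fold, *PAX4* at 30 min and *PAX2*, *PAX5* and *PAX9* at 2 hrs.

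The ratios depended strongly on which dye carried the laser RNA. Within a replicate, the ratios of the 50 genes on arrays with laser in Cy3 and on arrays with laser in Cy5, both turned to laser over control, correlated with r from -0.75 to -0.05 and below 0 in 8 of 8 replicates (all genes -0.64 to -0.24, 8 of 8). These correlations are across genes, which are not independent. Between the replicates of a time point, r over the 50 genes took the values 0.02, 0.25, -0.21 and -0.03 in order of time. All 4 means of a time point (2 replicates in 2 orientations) had one sign in 4, 2, 3 and 2 of the 50 genes, where 8.38%, 3.66%, 7.98% and 7.51% of all genes had. Each ratio below is the mean of both orientations, and orientation means or their range are given for each ratio with a p under 0.05.

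The PAX genes encode paired-domain factors, of which *PAX2* and *PAX8* act in the otic placode, *PAX3* and *PAX7* in neural crest and muscle precursors, *PAX6* in lens and eye, *PAX1* and *PAX9* in pharyngeal pouches and somites, *PAX4* in endocrine pancreas and *PAX5* in B cells and the midbrain. At 2 hrs 8 of the 9 lay below 0, with a median of -0.18, a median of -0.33 in replicate 1, where all 9 lay below 0, and of -0.11 in replicate 2, where 5 did. Both replicates lay below 0 for 5 of the 9, where both did for 28.6% of all genes. At 30 min 8 of 9 also lay below 0 (median -0.04), at 1 hr 2 (median 0.08) and at 3 hrs 4 (median 0.02). Of all genes, 51.66%, 54.85%, 54.92% and 50.33% lay below 0 in order of time.

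*PAX9* had ratios of -0.37 and -0.26 in the 2 replicates at 2 hrs, a mean of -0.32 (SE 0.08, limma p = 0.00146, adjusted p = 0.209). All 4 orientation means were below 0, from -0.52 to -0.13. At 1 hr the same gene stood at 0.20 and 0.17 (mean 0.18, SE 0.08, limma p = 0.0381, adjusted p = 0.999). The 1 hr rise came from the Cy3 orientation, at 0.36 and 0.59 in the replicates, against 0.04 and -0.26 in the Cy5 orientation. The 1 hr value lost p under 0.05 when any of 7 of the 17 arrays was left out. The difference of 2 hrs from 1 hr was -0.50 (limma p = 0.000617, adjusted p = 0.908).

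*PAX2* stood at -0.46 and -0.15 at 2 hrs, a mean of -0.31 (SE 0.09, limma p = 0.00464, adjusted p = 0.216). Its orientation means were -0.93 and 0.01 in replicate 1 and -0.25 and -0.06 in replicate 2, with laser in Cy3 and in Cy5, so that 1 of the 4 was far from the rest. At the other time points *PAX2* lay at -0.02, -0.03 and 0.09. *PAX5* stood at -0.58 and -0.20 at 2 hrs, a mean of -0.39 (SE 0.13, limma p = 0.00948, adjusted p = 0.266). Its orientation means were -0.28 and -0.89 in replicate 1 and 0.30 and -0.70 in replicate 2, so that in replicate 2 the orientations opposed each other.

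All 3 of these calls were lost when a single array was left out, the fourth of replicate 1 with laser in Cy3. *PAX9* also stood at -0.26 in replicate 2, which did not hold that array. On that array *PAX2* was at -3.44, *PAX9* at -2.98 and *PAX5* at -2.73, and *PAX8* at -1.52. Each of these was the mean of 2 spots that lay far apart. The spots were at -2.09 and -4.79 for *PAX2* and at -1.79 and -4.16 for *PAX9*. They were at -3.87 and -1.60 for *PAX5* and at 0.24 and -3.29 for *PAX8*. On the other 3 arrays of the same orientation and replicate *PAX9* lay from 0.40 to 0.91, *PAX5* from 0.22 to 1.04, *PAX8* from 0.24 to 0.40 and *PAX2* from -0.34 to 0.12. The array therefore stood apart from its own technical repeats for these genes. All 9 PAX genes and 32 of the 50 lay below 0 on it, and *PAX2*, *PAX5* and *PAX9* were below the 1st percentile of its ratios (-1.81). Its ratios had an SD of 0.71 over the genes tested, the third highest of 77 arrays (range 0.21 to 0.82). The spots of *PAX2*, *PAX5* and *PAX8* were neighbours in 1 row of 1 block, and those of *PAX1*, *PAX4*, *PAX7* and *PAX9* in the same row of the next block. Whether position on that slide had a part in these values was not tested.

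Without that array, left out after the data had been seen, *PAX9* at 2 hrs was -0.09 (limma p = 0.354), *PAX2* was -0.10 (limma p = 0.242) and *PAX5* was -0.19 (limma p = 0.136). Replicate 1 then stood at 0.09 for *PAX9*, -0.04 for *PAX2* and -0.17 for *PAX5*, so that the *PAX9* replicates had opposite signs. The number of the 50 called at 2 hrs with the fold threshold went from 3 to 0, and that of all genes from 63 to 44. The PAX median at 2 hrs became -0.06, with 8 of 9 still below 0. Each of the 3 ratios kept p under 0.05 when any other of the 15 arrays was left out instead. The plot of the PAX genes by array shows this array beside the other 14.

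**Figure D2:**
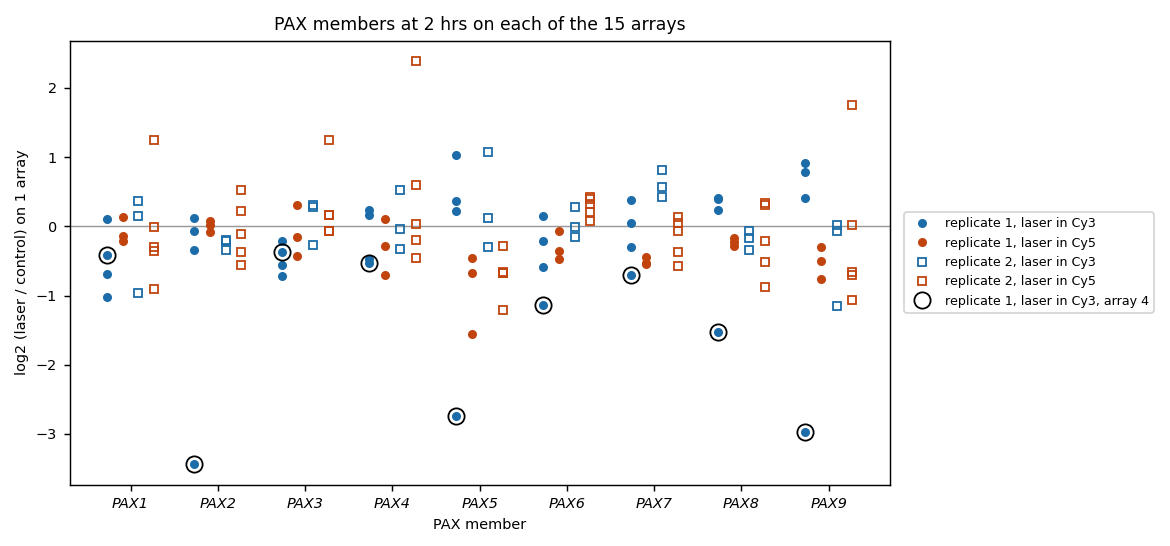
Log2 ratio of laser over control (y axis) of the 9 PAX genes (x axis) on each of the 15 arrays at 2 hrs. Filled circles are replicate 1, open squares replicate 2, blue is laser in Cy3 and orange laser in Cy5, and large rings mark the 1 array on which *PAX2* was at -3.44, *PAX9* at -2.98 and *PAX5* at -2.73.

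The human probe for *PAX8*, the remaining otic PAX gene, matched no chicken gene by name. Its 2 hr ratios were -0.17 and -0.19 in the replicates (mean -0.18, SE 0.09, limma p = 0.0675), with all 4 orientation means from -0.22 to -0.12. Without the array named above its mean was -0.06. *PAX1* at 2 hrs was -0.20 (replicates -0.29 and -0.11, limma p = 0.0510), and -0.20 (limma p = 0.0429) without the array, the only one of the 50 then under 0.05. *PAX3*, at -0.28 and 0.20, and *PAX6*, at -0.37 and 0.16, had replicates of opposite sign at 2 hrs.

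*PAX4* was the single call at 30 min. Its replicates were -0.43 and -0.11, a mean of -0.27 (SE 0.11, limma p = 0.0280, adjusted p = 0.450), and all 4 orientation means were below 0, from -0.59 to -0.01. Over the 25 arrays the lowest ratio was -1.32, the median -0.12 and the highest 0.67, and 7 lay above 0. The call was lost on leaving out any of 4 single arrays, with p up to 0.0743.

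Among the sine oculis, EYA and DACH genes, ratios stayed between -0.23 and 0.16 at all 4 time points and 0 of 10 passed the fold threshold. *SIX4* lay between 0.02 and 0.11. *EYA1* was -0.33 and -0.06 at 30 min (mean -0.20, SE 0.09, limma p = 0.0436, adjusted p = 0.522). Its orientation means were -0.53 and -0.13 in replicate 1 and -0.25 and 0.13 in replicate 2, with laser in Cy3 and in Cy5. The p rose above 0.05 when any of 8 of the 25 arrays was left out, most without the array that had *EYA1* at -2.11 (mean -0.12, limma p = 0.173). *EYA2* was -0.09 and -0.37 at 1 hr (mean -0.23, SE 0.08, limma p = 0.0151, adjusted p = 0.999), with -0.31 and -0.75 where laser was in Cy3 and 0.13 and 0.01 where it was in Cy5, and leaving out 1 of 17 arrays took its p to 0.0520. *EYA4*, a deafness gene in humans, lay between -0.11 and 0.04, and *DACH* between -0.08 and 0.05.

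For *SIX2* and *SIX3* the difference between dyes was larger in size than any of their wound ratios. The log2 ratio of Cy5 over Cy3, whichever RNA carried the dye, passed an adjusted p of 0.05 in 19 of the 50 genes, 10 higher in Cy5 and 9 in Cy3, where 32.9% of all genes passed, 17.3% higher in Cy3. Among the largest were *PAX5* at -0.78 (SE 0.08, adjusted p = 2.6e-06), *SIX2* at -0.39 (SE 0.07), *SIX3* at -0.39 (SE 0.06) and *POU4F3* at -0.29 (SE 0.06), each below 0 in all 8 replicates. *SIX4* was also below 0 in all 8 (-0.23). The means of *EYA1*, *EYA2* and *EYA3* were above 0 (0.17, 0.15 and 0.19), as were 6, 7 and 8 of their 8 replicates. The dye difference of *SIX3* in the 8 replicates ran from -0.62 to -0.15, and its laser over control ratios from -0.18 to 0.17. Values by gene are drawn in the plot of the dye difference.

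**Figure D3:**
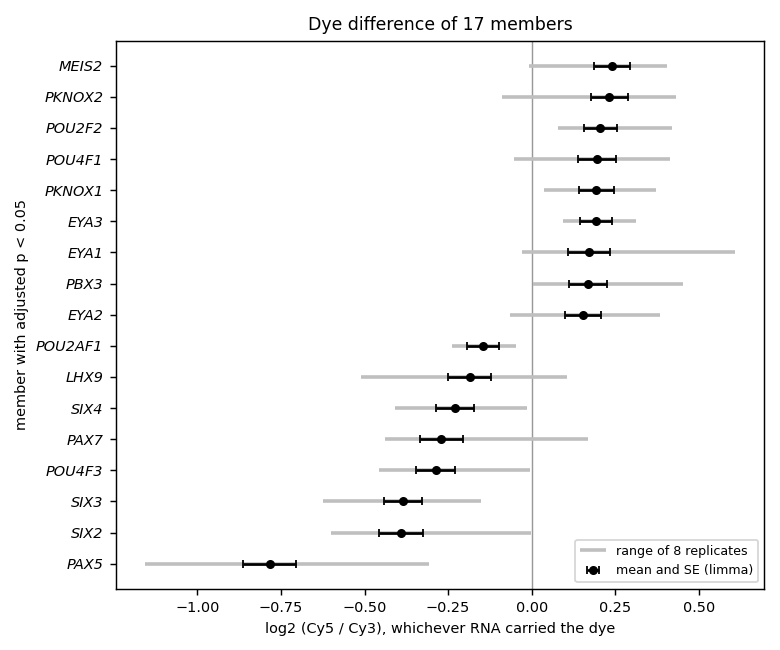
Log2 ratio of Cy5 over Cy3 (x axis) of 17 genes with an adjusted p under 0.05 (y axis). Black points are means with SE from limma and grey bars the range of the 8 replicates, with *PAX5* at -0.78 farthest to the left and *MEIS2* at 0.24 farthest to the right.

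The POU genes gave 0 of 11 calls with the fold threshold. *POU4F3*, the hair cell factor, lay at 0.12, 0.10, -0.14 and -0.16 through the time course. Its replicates were 0.18 and 0.06 at 30 min and 0.18 and 0.03 at 1 hr, then -0.10 and -0.18 at 2 hrs, and -0.14 and -0.18 at the end. All 4 early replicates were above 0 and all 4 late ones below, and the F-test between time points gave p = 0.0414 in limma and missed the threshold after adjustment. With laser in Cy5 *POU4F3* was at 0.12 and 0.05 in the 30 min replicates, -0.22 and -0.43 in those of 1 hr, -0.55 and -0.58 in those of 2 hrs, and -0.38 and -0.47 in those of 3 hrs. With laser in Cy3 all 8 means were above 0, from 0.06 to 0.58, so that the step from 30 min to 1 hr went up in this orientation and down in the other. That F-test lost p under 0.05 when any of 13 of the 77 arrays was left out.

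*POU4F1*, a factor of sensory neurons and the only one of the 50 above the control spots at every time point, lay between -0.10 and -0.04 (limma p from 0.292 to 0.663). *POU3F4*, a factor of the mesenchyme around the inner ear and a human deafness gene, had replicates of -0.19 and -0.20 at 2 hrs (mean -0.20, SE 0.09, limma p = 0.0522), and between -0.04 and 0.04 at the other times. *POU1F1*, a pituitary factor, was 0.22 and 0.14 at 30 min (mean 0.18, SE 0.08, limma p = 0.0449, not under the threshold after adjustment), with all 4 orientation means from 0.10 to 0.27 and 18 of 25 arrays above 0. Leaving out any of 8 single arrays raised its p above 0.05.

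Of the 8 LIM homeobox genes, 0 passed the fold threshold. *LHX4*, a factor of pituitary and motor neurons, was -0.20 and -0.22 at 30 min (mean -0.21, SE 0.08, limma p = 0.0227, adjusted p = 0.450), with -0.09 and -0.31 in replicate 1 and -0.47 and 0.04 in replicate 2 by orientation, Cy3 first. At 1 hr it was 0.14 and 0.20 (mean 0.17, SE 0.08, limma p = 0.0555), with all 4 orientation means from 0.11 to 0.25. The difference between the 2 time points was 0.38 (SE 0.11, limma p = 0.00554, adjusted p = 0.390) and the F-test between time points gave p = 0.0376. One array at 30 min had *LHX4* at -2.12, and without it the 30 min mean was -0.13 (limma p = 0.133) and the F-test gave p = 0.132. Any of 2 of the 25 arrays took the 30 min p above 0.05, and any of 6 of the 77 that of the F-test. *ISL1*, which marks otic sensory and neuronal precursors, lay at 0.08, 0.04, -0.11 and -0.03, and *LMX1B* at -0.15, -0.04, 0.05 and -0.02, all with limma p over 0.05.

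*GBX2* and *OTX2* meet at the midbrain and hindbrain boundary and both act in the otic vesicle. The *GBX2* replicates were -0.20 and -0.07 at 30 min and 0.28 and 0.15 at 1 hr, then 0.09 and 0.16 at 2 hrs, ending with -0.09 and -0.04 at 3 hrs. As means of both orientations, all 4 replicates of 1 hr and 2 hrs lay above 0 and all 4 of 30 min and 3 hrs below. The 1 hr mean was 0.21 (SE 0.08, limma p = 0.0175, adjusted p = 0.999), and 14 of 17 arrays were above 0. The F-test between time points gave p = 0.0250 (adjusted p = 0.567), with 1 hr above 30 min by 0.35 (limma p = 0.00748, adjusted p = 0.410) and 3 hrs below 1 hr by a difference of -0.28 (limma p = 0.0255, adjusted p = 0.985).

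The *GBX2* values did not rest on 1 array. The 1 hr ratio kept p under 0.05 with any of the 17 arrays left out (0.17 to 0.24, p from 0.00760 to 0.0473), and the F-test with any of the 77. Arrays of a replicate were technical repeats, so leaving out single arrays did not test the spread between replicates. Among settings that kept both replicates of each time point, 4 took the F-test p of *GBX2* out of the range under 0.05. These were plain background subtraction, median centring, the authors' table of ratios and laser in Cy5 only. Leaving out a replicate left a single sample at its time point, which could not decide the question. The *GBX2* ratio was larger in size in replicate 1 than in replicate 2 at 30 min, 1 hr and 3 hrs. The 1 hr ratio did rest on 1 dye orientation. It was at 0.58 and 0.27 with laser in Cy3, and at -0.02 and 0.03 with laser in Cy5. At 3 hrs *GBX2* was at -0.32 and -0.20 with laser in Cy3, and at 0.14 and 0.11 with laser in Cy5. From 1 hr to 3 hrs *GBX2* thus fell in the Cy3 orientation (means 0.42 and -0.26) and not in the other (0.00 and 0.13). *OTX2* was -0.16 and -0.28 at 2 hrs (mean -0.22, SE 0.09, limma p = 0.0243, adjusted p = 0.358), with -0.59 and -0.84 in the Cy3 orientation and 0.27 in each replicate in the Cy5 orientation. Its 2 orientations thus had opposite signs in both replicates, and its p rose above 0.05 when any of 4 of the 15 arrays was left out, to 0.162 in limma without the array named above. The courses of *GBX2*, *LHX4*, *POU4F3* and 3 PAX genes are drawn in the plot of ratios over time.

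**Figure D4:**
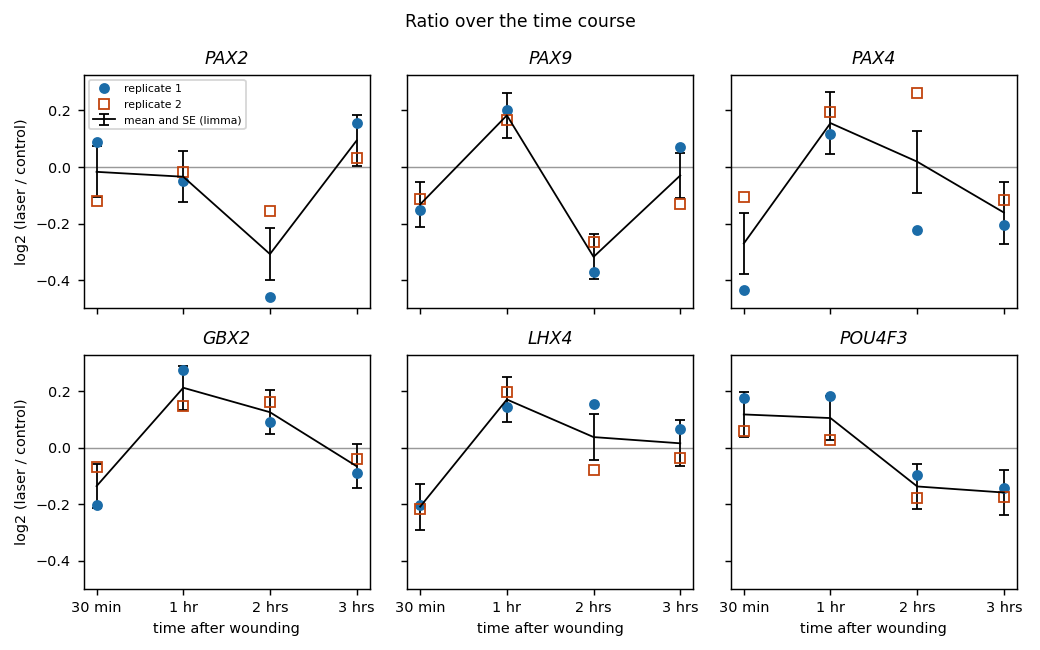
Log2 ratio of laser over control (y axis) against time after wounding (x axis) for *PAX2*, *PAX9*, *PAX4*, *GBX2*, *LHX4* and *POU4F3*. Filled circles are replicate 1, open squares replicate 2, and lines join means with SE from limma, with *GBX2* at 0.21 at 1 hr and *PAX9* at -0.32 at 2 hrs, the latter with the array on which it was at -2.98.

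Over the whole time course, 5 of the 50 genes had an F-test p under 0.05 for a difference between time points (*PAX9*, *GBX2*, *LHX4*, *POU4F3* and *PAX2*), where 8.18% of all genes had, and limma gave 0 of 50 and 0 of 1504 with an adjusted p under 0.05. For *PAX9* the p was 0.00487, and 0.119 without the 2 hr array named above, and for *PAX2* it was 0.0441, and 0.427 without it, rising above 0.05 when any of 14 of the 77 arrays was left out. The 30 min and 3 hr arrays had been scanned on days of their own, so a difference involving either cannot be told apart from the scan day. On 1 day that held both replicates and both orientations of 1 hr and 2 hrs, on 14 arrays, 2 hrs minus 1 hr was -0.17 for *PAX9*, -0.01 for *PAX2*, -0.38 for *PAX5* and -0.27 for *GBX2*. It was -0.17 for *POU4F3* and 0.04 for *LHX4*. Another day, which held the array named above, had 1 replicate of each time, on 3 arrays at 1 hr and 4 at 2 hrs. The 1 hr arrays were not balanced by dye, with laser in Cy3 on 1 and in Cy5 on 2. On that day *PAX9* differed by -0.90, *PAX2* by -0.84 and *PAX5* by -1.05. There *GBX2* differed by 0.12, *POU4F3* by 0.20 and *LHX4* by -0.10, each opposite in sign to the first day.

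The TALE genes gave 0 of 9 calls with the fold threshold. *MEIS2* was -0.11 and -0.31 at 1 hr (mean -0.21, SE 0.08, limma p = 0.0219, adjusted p = 0.999), and this p stayed under 0.05 with any of the 17 arrays left out. With laser in Cy3 it was -0.26 and -0.62, and with laser in Cy5 0.04 and 0.00. *PKNOX2* was -0.10 and -0.35 at 1 hr (mean -0.23, SE 0.08, limma p = 0.0170, adjusted p = 0.999), and it too was below 0 in the Cy3 orientation (-0.37 and -0.78) and above 0 in the other (0.16 and 0.08). Leaving out 1 array, on which *PKNOX2* was at -1.57, gave -0.16 (limma p = 0.0626). At 2 hrs all 9 TALE genes lay below 0 on arrays with laser in Cy3 and 2 of 9 with laser in Cy5. Of all 1504 genes, 846 lay below 0 with laser in Cy3 and 688 with laser in Cy5.

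At 3 hrs 8 of the 9 TALE genes lay above 0, where 747 of all 1504 genes did. In both replicates 7 of them did (25.5% of all genes). The 9 had a median of 0.06 and a range from -0.08 to 0.13. None of the 9 had a p under 0.05 there. *MEIS1* was at 0.07 and 0.06 in the replicates, with 0.16 and 0.19 in the Cy3 orientation and -0.03 and -0.08 in the Cy5 orientation. *MEIS2* was at 0.17 and 0.09, with -0.06 and -0.28 in the Cy3 orientation and 0.40 and 0.46 in the Cy5 orientation. Both genes thus had opposite signs by dye in both replicates. The median of the 9 was -0.05 with laser in Cy3 and 0.08 with laser in Cy5.

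The level of each channel was followed separately, as log2 signal minus the median of the array. In control RNA 5 of the 50 genes differed across time points at an F-test p under 0.05 (among them *PAX4*, *LHX6*, *POU3F2* and *EYA4*), where 18.4% of all genes did. In laser RNA 7 did (*POU3F2*, *LHX6*, *POU2AF1*, *PAX4*, *GBX2*, *EYA4*, *LHX5*), where 15.9% of all genes did. With an adjusted p under 0.05 limma gave 0 of 50 in either channel, and 9 (0.598%) and 6 (0.399%) of all 1504 genes.

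*POU3F2*, a factor of the nervous system, was at -0.37 and -0.49 in control RNA at 30 min and at 0.87 and 0.41 at 1 hr, a difference of 1.08 (limma adjusted p = 0.0920). Laser RNA gave a difference of 1.18, so that both channels of the same arrays moved together and the ratio stayed between -0.10 and 0.00. *LHX6*, a factor of interneurons, was at 1.61 and 1.12 in control RNA at 2 hrs and at 2.57 and 2.58 at 3 hrs, a difference of 1.21 (limma adjusted p = 0.1665). In control RNA the shift of both genes was larger than any of their wound ratios. As for the ratios, a difference in level that involves 30 min or 3 hrs cannot be told apart from the scan day.

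*PAX4* in control RNA was at 0.97 and 0.51 at 30 min, followed by -0.66 and -0.20, by 0.05 and 0.24, and by -0.17 and -0.88 at the later time points. Its mean level at 30 min was the highest of the 4, and so was that in laser RNA, at 0.55 and 0.40, where 1 replicate of 2 hrs stood at 0.50. On the scan day shared by 1 hr and 2 hrs, 0 of the 50 differed between these times at p under 0.05 in either channel in limma, where 0.931% of all genes did in control RNA and 0.598% in laser RNA.

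**Figure D5:**
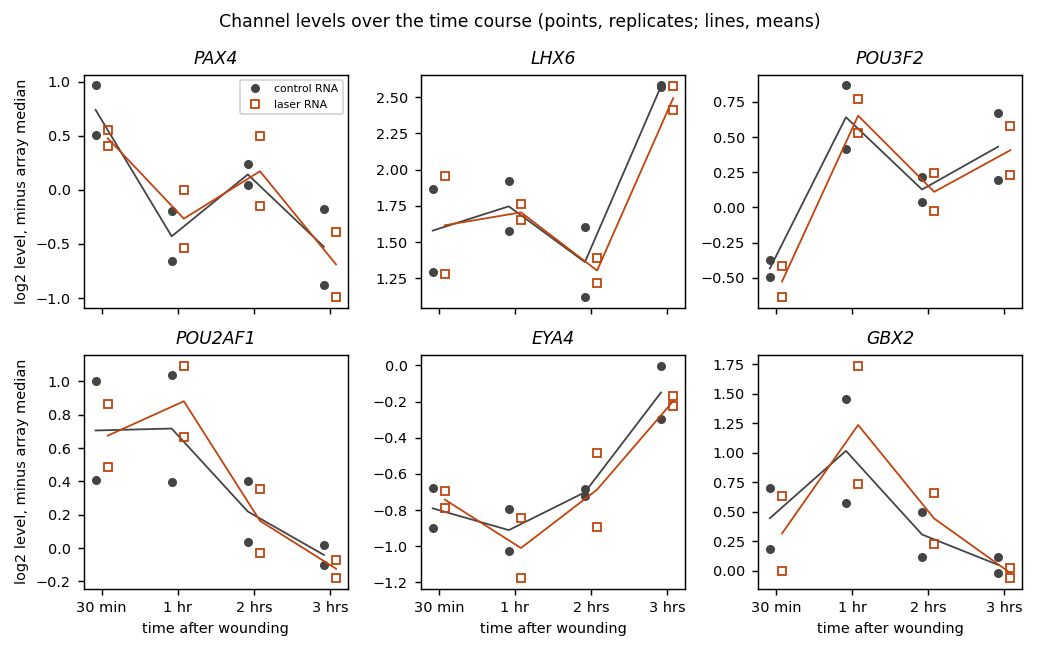
Log2 level minus the array median (y axis, its range set for each gene) against time after wounding (x axis) for 6 of the genes with an F-test p under 0.05 in a channel. Filled circles are control RNA, open squares laser RNA, each point a replicate and each line a mean, with *POU3F2* in control RNA at -0.43 at 30 min and 0.64 at 1 hr.

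Other genes of the same network were read from a list of 48, of which 37 were on the array and tested. At an unadjusted p under 0.05, 1 was higher at 30 min, 0 differed at 1 hr, 1 was higher and 5 lower at 2 hrs, and 1 was lower at 3 hrs, where 8.91%, 2.66%, 10.9% and 3.79% of all genes differed in either direction. None had an adjusted p under 0.05. The list's median stayed between -0.05 and 0.02. *NEUROG1*, the proneural factor of the otic ganglion, was 0.54 and 0.57 at 30 min (mean 0.56, limma p = 6.49e-05, adjusted p = 0.0685). It was at 0.48 in the Cy3 orientation and 0.63 in the Cy5 orientation.

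*BARHL1*, a factor of hair cells and sensory neurons, was -0.38 and -0.31 at 2 hrs (mean -0.35, limma p = 0.000620, adjusted p = 0.209), with -0.37 and -0.32 in the Cy3 and Cy5 orientations. Without the 2 hr array named above it was -0.31 (limma p = 0.00125). *DLX3*, a gene of the preplacodal border, was -0.34 at 2 hrs (limma p = 0.00261) and -0.27 at 3 hrs (limma p = 0.0109), and -0.27 at 2 hrs without that array. Of the 6 network genes with p under 0.05 at 2 hrs, *BARHL1*, *DLX3* and *HHEX* (-0.29, and -0.24 without the array) kept it in limma, and *TFAP2A* (p = 0.0809), *BAPX1* (p = 0.0863) and *LDB1* (p = 0.124) did not. *DLX3* was above 0 in the Cy3 orientation and below 0 in the Cy5 orientation at both times (0.07 and -0.75 at 2 hrs, 0.24 and -0.78 at 3 hrs). *BAPX1* (0.98 and -0.17) and *LDB1* (0.21 and -0.56) likewise had opposite signs at 2 hrs, Cy3 first. *HHEX* (-0.21 and -0.38) and *TFAP2A* (-0.02 and -0.39) were below 0 in both orientations.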

How the data were processed

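The authors deposited, for both channels of 77 arrays, the mean intensity of each spot and of its local background from ImaGene, with no normalization and no spot marked as poor. They also deposited a table of log2 ratios, which equals the raw log2 ratio of the mean signals to within 5.77e-15, turned to laser over control, and which served as an alternative only. The dye of the laser RNA came from the array titles, and the image names gave the same dye on 77 of 77 arrays. Signals were background corrected (normexp, offset 50) and loess normalized in limma 3.58.1 under R 4.3.3, with the spots of 27 control names at weight 0. Spots of a gene were averaged, then arrays of an orientation, then orientations, giving 8 biological replicates. Genes with a mean signal of at least 1000 at 1 or more time points were tested (1504, all 50 members among them). Time points were compared in limma (lmFit, eBayes, moderated F-tests, prior df 9.30, median residual SD 0.12), which pools the spread over the 4 time points. Benjamini-Hochberg adjustment ran over all 1504 genes. The dye term was fitted on 16 orientation means. Named are genes with known roles in the ear or placodes, all calls at p under 0.05 and over 1.2-fold, all with an F-test p under 0.05 between time points, and the 5 largest dye differences, except 2 members that are counted but whose own results are not reported here. The other genes with p under 0.05 at a time point, *PAX1* and the network genes with values were named after their values were seen. Members and lists were chosen with earlier results of these data known. Replicate numbers were not used to pair the samples in the main fit. A check for pairing gave r from -0.25 to 0.17 over 6 pairs of time points. It could not decide the question, because r between replicates of a time point was itself only -0.01 to 0.21 over all genes. Background, normalization, filter, source, orientation, block and leave-one-out alternatives were run, and the scripts were tested on simulated data. The number of arrays and replicates limits the precision.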

Additional observations from a re-analysis of the deposited data

Results flagged for a closer look

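Of 700 groups of 4 to 10 arrays of one gene, replicate and orientation, 52 (7.43%) had a highest or lowest array far from the rest by Dixon's criterion, where chance marks about 1 in 20 groups. Those that touch a named ratio are as follows. At 2 hrs, replicate 1 with laser in Cy3, array 4 gave -3.44 for *PAX2*, -2.98 for *PAX9* and -1.52 for *PAX8*. In replicate 2 with laser in Cy5, *PAX3* was at 1.25 on array 3. At 30 min in replicate 1, *EYA1* was at -2.11 on array 4 with laser in Cy3, *PAX4* at -1.16 on array 5 with laser in Cy3, and *LHX4* at -2.12 on array 4 with laser in Cy5. In replicate 2 at 30 min *LHX4* was at -0.48 on array 2 with laser in Cy5, and at 1 hr *GBX2* was at -0.36 on array 2 of replicate 2 with laser in Cy5. The F-test of a difference between time points gave an unadjusted p of 0.00487 for *PAX9*, 0.0250 for *GBX2*, 0.0376 for *LHX4*, 0.0414 for *POU4F3* and 0.0441 for *PAX2* in limma, none of which passed adjustment over 1504 genes.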

How the results depend on the processing

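In the main setting 4 pairs of gene and time point among the 50 and 125 of all genes passed p under 0.05 and 1.2-fold, 5 and 123 the F-test between time points, and 0 any adjusted test of laser over control. Pairs and genes passing became 11 and 234 with plain background subtraction, 0 and 45 with none, 2 and 81 with scale normalization, 0 and 78 with the median over arrays, 1 and 79 with the methods' t-test, 17 and 391 with the authors' table, 49 and 806 with laser in Cy3 only, 46 and 653 with laser in Cy5 only, and 46 and 657 with no array turned. They were 13 and 344 with no fold threshold and 0 and 2 at 1.5-fold. Pairs alone became 2 with median centring and with either random block, and 1 without the 2 hr array. Adjusted calls of all genes became 33 with the replicate and 25 with the scan day as random block. The correlation within a block was -0.01 for the replicate and -0.02 for the scan day. Both block fits thus counted technical repeats nearly as independent samples, here and in the F-tests below, as did the t-test over arrays. Adjusted calls became 14 with median centring, 6 with the authors' table, 2 with no background correction, 2 with the t-test and 1 with plain subtraction. In 1 orientation alone or unturned, pairs and genes with an adjusted p were 8 and 208 (Cy3), 10 and 114 (Cy5) and 26 and 404 (no array turned). F-test counts of the 50 became 3 with plain subtraction, 3 with none, 3 with median centring, 2 with the median over arrays, 2 with laser in Cy5 and 10 unturned. F-test counts of all genes became 191 (8 adjusted) and 185 (9 adjusted) with the replicate and scan day blocks, 191 (3 adjusted) with the authors' table, 227 with laser in Cy3, 209 (2 adjusted) unturned, 72 with the median and 64 with plain subtraction. The PAX median at 2 hrs was -0.18. It became -0.26 with the authors' table, -0.11 with no background correction, -0.067 with laser in Cy5 only, -0.052 with plain subtraction and 0.071 unturned. Signs reversed as follows. With the authors' table *EYA1* at 30 min was 0.060, and with laser in Cy3 *PAX5* at 2 hrs was 0.013. With laser in Cy5 *EYA1* was 0.0026, and at 1 hr *EYA2* was 0.072, *MEIS2* 0.021, *PAX9* -0.11 and *PKNOX2* 0.12, while *OTX2* at 2 hrs was 0.27. With no array turned the values at 30 min were *EYA1* 0.20, *LHX4* 0.072 and *POU1F1* -0.043, at 1 hr *EYA2* 0.30, *GBX2* -0.21, *MEIS2* 0.23, *PAX9* -0.29 and *PKNOX2* 0.35, and at 2 hrs *OTX2* 0.49 and *PAX2* 0.28. Unturned values are Cy5 over Cy3 by construction, and for the other changes the cause was not tested. Leaving out 1 replicate gave 4 to 10 pairs, 136 to 270 genes (0 to 5 adjusted), 1 to 9 of the 50 and 67 to 205 genes (0 to 1 adjusted) in the F-test, a PAX median from -0.33 to -0.11, dye counts from 14 to 21 and 387 to 539, and level counts from 4 to 10 in control and 4 to 9 in laser RNA. Leaving out a replicate left a single sample at its time point. *PAX9* at 2 hrs was -0.26 without replicate 1 of that time and -0.37 without replicate 2. The latter value was that of replicate 1, which held the array with *PAX9* at -2.98 and stood at 0.09 without that array. Dye calls of all genes were 792 in place of 495 with median centring. Control level calls were 8 in place of 5 with quantile normalization. Detected genes at 30 min and 3 hrs were 22 and 36 at a lower signal minimum, 30 and 42 in 50% of arrays, and 12 at 3 hrs at a higher minimum. Above the 95th percentile of the control spots they were 1, 5, 2 and 5 in order of time, and 4, 5, 2 and 5 without the mismatch series of control spots. The replicate block left the ratios as they were (PAX median -0.18) and gave 4 pairs, 126 genes and 5 and 106 in the F-test, where *PAX4* replaced *PAX2* among the 5, and took *EYA1* and *POU1F1* at 30 min to p of 0.0559 and 0.0540, while no other named ratio lost its p under 0.05. Signal near that of the control spots and 2 replicates for each time point limit what could be detected. So do dye differences, which in some genes were larger than the ratios.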
